A study of Mus musculus with 7 samples.

Results

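The non-ischemic wound edge of C57Bl6 mice was profiled for mature miRNAs 3 days after wounding, and 4 of the 7 samples in the series belong to it. The columns of these 4 samples were taken from the tables by their labels, and no other sample was used. The labels give the strain, the tissue and the day, name no genotype or agent, and do not say whether each sample came from a separate animal, so the spread between samples may be partly technical. Each sample was measured once by real-time PCR after reverse transcription with pooled looped primers, on a plate of 316 assays. Of these, 306 target miRNAs named for human (prefix hsa) or mouse (prefix mmu), 9 are control RNAs and 1 is a fly miRNA. The readout is the threshold cycle (Ct), where a lower Ct means more product, an added cycle stands for a halving of the RNA if every cycle doubles the product, and a value of 40 marks an assay without product. A Ct below 35 was taken as detection. Levels are given as log2 values relative to 5S rRNA in the same sample. Assays differ in efficiency, so an order of levels between miRNAs is an order of assay readings, and the sequences that the assays target were not used here.

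A miRNA is a short RNA that guides Argonaute proteins to matching sites in messenger RNAs, mostly through its seed, the bases near its 5′ end, and thereby lowers their translation and stability. On the days after wounding, skin holds infiltrating neutrophils and macrophages, migrating keratinocytes, fibroblasts, vessels and, beneath the dermis, the thin panniculus carnosus muscle, and each of these has miRNAs typical of it. Members of a family share a seed, and many miRNAs are cut from a common precursor transcript with neighbours a short distance away.

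The highest reading among the miRNA assays came from miR-223, the miRNA of neutrophils and other myeloid cells. The mature sequences of the 6 miRNAs below were chosen because they stand among the highest readings or mark the wounded epidermis. They are the mouse forms in RefSeq (GRCm38.p6), with the seed, bases 2 to 8, in capitals.

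miR-223: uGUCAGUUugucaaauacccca
miR-24: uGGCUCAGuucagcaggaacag
miR-191: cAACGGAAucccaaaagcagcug
miR-146a: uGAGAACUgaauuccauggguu
miR-31: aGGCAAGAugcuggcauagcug
miR-21: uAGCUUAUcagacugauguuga

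In GRCm38.p6, miR-223 lies at chrX:96242884-96242905 on the plus strand, miR-191 at chr9:108568325-108568347 on the plus strand and miR-146a at chr11:43374435-43374456 on the minus strand. miR-31 lies at chr4:88910614-88910635 and miR-21 at chr11:86584120-86584141, both on the minus strand. miR-24 is encoded by 2 hairpins, with mature sequences at chr8:84208875-84208896 and chr13:63301251-63301272, both on the plus strand.

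Of the 306 miRNA assays, 87 gave a Ct below 35 in all 4 samples (28.4%), 24 in 1 to 3 samples, and all others (63.7%) in none. Of those in none, 116 gave no product in any sample and 79 gave a late product in at least 1. Detection per sample was even, with 103, 94, 97 and 101 miRNAs in samples 1 to 4. Assays of human name were detected in all 4 samples in 63 cases (40.9% of that name) and assays of mouse name in 24 (15.8%). The mouse-named assays hold the embryonic miR-290 cluster and the block from miR-680 to miR-721, so the prefixes differ in which miRNAs they cover. The median Ct of the 87 was 31.3, and their levels spanned 11.73 log2 units, which is 3386-fold.

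**Figure D1:**
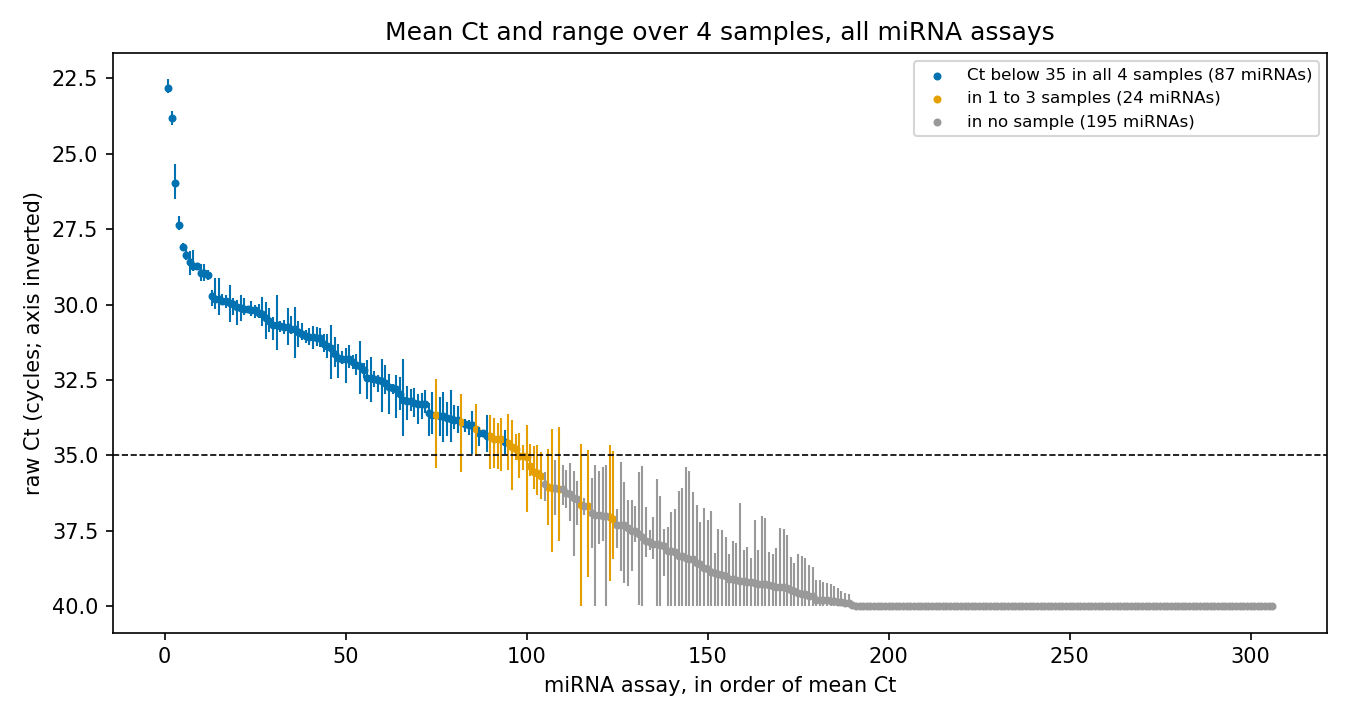
Raw Ct (vertical axis, inverted) of the 306 miRNA assays in order of mean Ct; points are means over the 4 non-ischemic samples, vertical lines run from the lowest to the highest sample, and the dashed line is the limit of 35. A few assays stand far above the rest, 87 lie below the limit in all 4 samples, and 116 lie flat at 40.

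A limit at Ct 35 cuts through a continuous order. The 5 miRNAs with a mean just inside it were miR-18a (34.5), miR-376a (34.6), miR-324-5p (34.6), miR-10a (34.7) and miR-467b (34.8), and of these miR-376a alone was inside it in every sample. The 5 just outside were miR-196b (35.01), miR-199a* (35.02), miR-340 (35.06), miR-99b (35.3) and miR-100 (35.5). Among the 24 miRNAs detected in 1 to 3 samples, 4 varied by more than 4 cycles. They were miR-213, the old name of the passenger strand of miR-181a (34.6, 35.2, 40 and 36.7 in samples 1 to 4), miR-423 (39.2, 36.6, 37.7 and 34.7), miR-486 (34.1, 34.6, 38.2 and 37.4) and miR-698 (37.6, 39.03, 35.3 and 34.8). For these the presence call depends on the sample.

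The top of the order was steep and came out alike in the 4 samples. miR-223 had a Ct of 22.99, 22.81, 22.97 and 22.54 in samples 1 to 4, and it was the highest miRNA in each of them. Its mean log2 level was -8.18 ± 0.32 (SD, n = 4), with sample 4 above the other three. Next came miR-709, a mouse miRNA studied mainly for its nuclear role on the precursor of miR-15a and miR-16-1, at 23.57, 23.63, 23.99 and 24.03 and a level of -9.16 ± 0.19. The difference of miR-223 over miR-709 was 0.98 ± 0.39 log2 units (SD of the within-sample difference) and had the same sign in 4 of 4 samples. miR-720, since withdrawn from miRBase as a likely tRNA fragment, followed at Ct 26.5, 26.01, 26.02 and 25.4 and a level of -11.33 ± 0.57. It was 2.17 ± 0.68 log2 units below miR-709, lower in 4 of 4 samples.

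Behind these stood miR-24, a regulator of cell cycle exit in differentiating cells, with a Ct of 27.5, 27.5, 27.3 and 27.1. Its level of -12.71 ± 0.34 was 1.38 ± 0.30 log2 units below miR-720 and 0.72 ± 0.18 above miR-26a, the next in order, again in 4 of 4 samples each. miR-223 read 23.1-fold higher than miR-24. From miR-26a down to miR-19b the readings ran close together. In this stretch lay the muscle miRNAs miR-133b (-13.95 ± 0.29), miR-133a (-14.32 ± 0.19) and miR-1 (-14.32 ± 0.19), the NF-kB feedback miRNA miR-146a (-14.06 ± 0.36) and the broadly expressed miR-191 (-14.09 ± 0.20). None of the 6 neighbouring pairs between miR-16 and miR-19b kept the same order in all 4 samples, and none differed by more than the SD of its difference. After a drop of 0.71 ± 0.33 below miR-19b, seen in 4 of 4 samples, the order ran on without a reproducible step from miR-699 through miR-31, miR-690, miR-30c, miR-484, miR-195 and miR-126 to miR-140. Over all 19 neighbouring pairs of the 20 highest miRNAs, 5 kept their order in every sample. With 4 samples an exact two-sided sign-flip test cannot reach the usual threshold, so no p is given for any step.

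**Figure D2:**
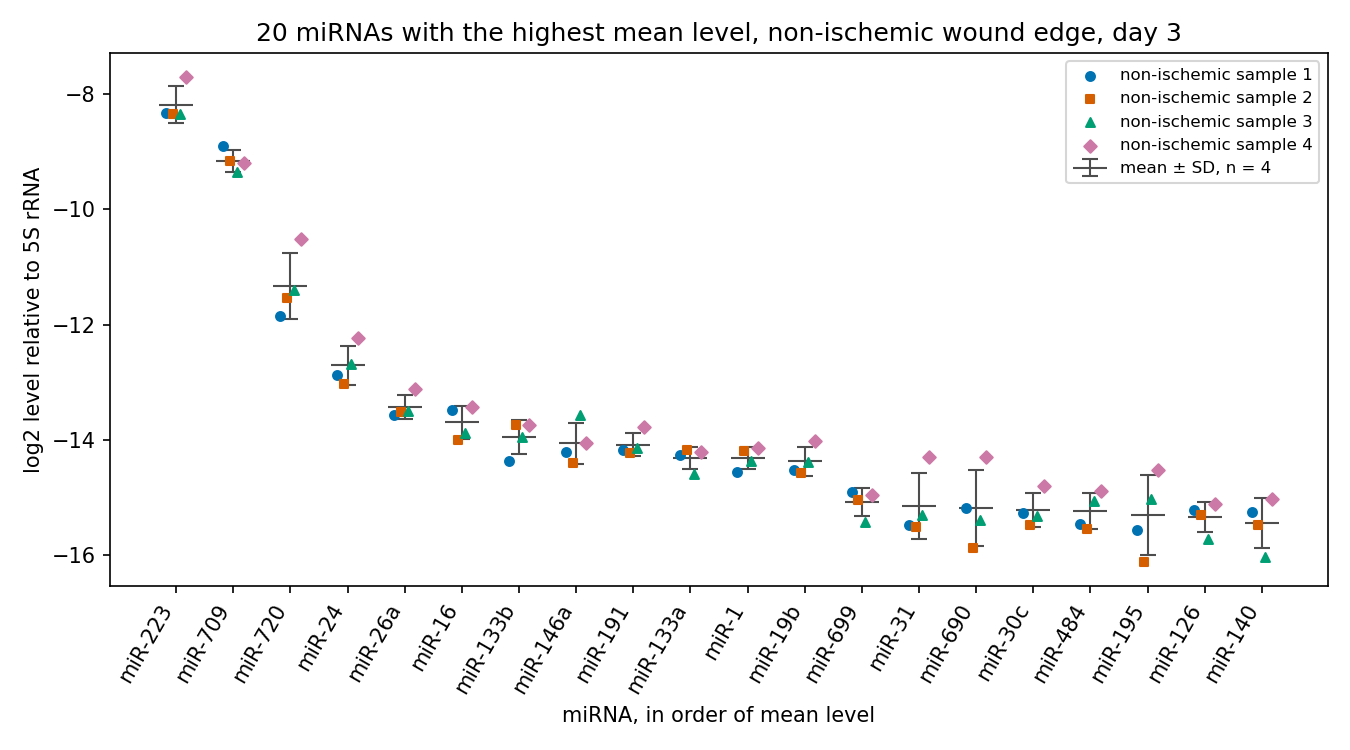
Log2 level relative to 5S rRNA (vertical axis) of the 20 miRNAs with the highest mean; symbols are the 4 samples, and bars are the mean ± SD (n = 4). miR-223, miR-709, miR-720 and miR-24 are separated from each other in every sample, and from miR-26a to miR-19b and again from miR-699 to miR-140 the samples of neighbouring miRNAs overlap.

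On the linear scale the profile was dominated by 3 assays. If every assay doubles its product at each cycle, miR-223 made up 49.5% of the summed level of the 87 miRNAs, miR-709 25.1% and miR-720 5.59%. The share of miR-223 was 45.6%, 48.6%, 49.0% and 53.4% in samples 1 to 4, so it was the largest share in all of them. The 10 highest miRNAs held 88.1% of the sum, with 87.4% to 89.2% in single samples. Without miR-709 and miR-720 the 10 highest of the remaining miRNAs held 84.8%. Of the 20 highest miRNAs by mean, 14 were also among the 20 highest of every sample.

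Myeloid and inflammatory miRNAs were all present (3 of 3 in each list, against 28.4% of all miRNA assays). Besides miR-223, both arms of miR-142, a hairpin expressed throughout the blood lineages, were detected in all samples. miR-142-3p had a Ct of 30.1, 31.2, 31.8 and 30.2 and miR-142-5p of 32.6, 32.1, 33.6 and 31.8 in samples 1 to 4. Both arms were lowest in sample 3, and both were among the 10 most variable miRNAs, with an SD of 0.90 and 0.82 log2 units. All 3 inflammation-induced miRNAs were detected, and miR-146a read 2.41 ± 0.42 log2 units above its seed partner miR-146b, higher in 4 of 4 samples. miR-155, induced in activated macrophages and lymphocytes, had a Ct of 32.4, 32.9, 32.4 and 32.3. Of 5 lymphocyte miRNAs, miR-150 (-16.16 ± 0.19), miR-342 (-18.16 ± 0.53) and miR-181b (-18.96 ± 0.65) were detected in all samples (60%, against 28.4% of all miRNA assays), and miR-181a and miR-181c in none.

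Epithelial miRNAs, used here to check the tissue against its label, were present at middle to low levels. Of 7 on the plate, 3 were detected in all samples (42.9%, against 28.4% of all miRNA assays), 2 in some and 2 in none. miR-200c, which keeps epithelial cells from a mesenchymal state, had a Ct of 30.7, 29.8, 30.7 and 30.1. miR-203, which drives keratinocytes out of the stem cell state, had 30.99, 31.56, 31.55 and 31.16, and miR-200b had 32.2, 32.6, 33.1 and 31.8. miR-205, a miRNA of basal keratinocytes, had 33.64, 32.97, 35.55 and 33.48, so it passed the limit in samples 1, 2 and 4 and lay lowest in sample 3. miR-203 read 2.60 ± 1.07 log2 units above miR-205, in 4 of 4 samples.

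The 5 members of the miR-200 family hold 2 seeds, and their sequences are shown because detection differed between the seeds. Capitals again mark the seed.

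miR-200c: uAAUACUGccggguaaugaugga
miR-200b: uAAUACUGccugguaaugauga
miR-429: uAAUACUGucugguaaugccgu
miR-141: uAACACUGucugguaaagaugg
miR-200a: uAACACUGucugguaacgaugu

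The 3 members with the seed AAUACUG had mean Ct values of 30.3, 32.4 and 34.1, and miR-429 missed the limit in sample 2 (35.03). The 2 members with the seed AACACUG were beyond it in every sample, miR-141 at 35.5 to 36.5 and miR-200a at 35.2 to 38.8. Both seeds occur in each of the genomic clusters, miR-200c with miR-141 within 430 bases on chromosome 6 and miR-200b with miR-200a and miR-429 within 1791 bases on chromosome 4.

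miRNAs known to rise in wounds were both detected in all samples (2 of 2, against 28.4% of all miRNA assays). miR-31, which promotes keratinocyte migration and proliferation, had a Ct of 30.14, 29.99, 29.94 and 29.14 in samples 1 to 4, with sample 4 the highest level. miR-21, induced in wound epidermis and granulation tissue, had 31.6, 31.6, 32.6 and 31.4, with sample 3 the lowest level. miR-31 read 3.99-fold above miR-21, higher in 4 of 4 samples, with an SD of 0.57 log2 units. miR-21 stood 502-fold below miR-223 and was not among the 20 highest readings.

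Muscle miRNAs were the most abundant of the tissue lists with more than 3 members by median Ct. Of 6 on the plate, miR-133b, miR-133a, miR-1 and miR-206 were detected in all samples (66.7%, against 28.4% of all miRNA assays), and the cardiac miR-208 and the slow-fibre and cardiac miR-499 gave no product in any. miR-1, which promotes muscle differentiation, had a Ct of 29.22, 28.67, 29.005 and 28.97, and miR-133a, encoded beside it, had 28.9, 28.6, 29.2 and 29.1. The level of miR-1 differed from that of miR-133a by -0.00 ± 0.22 log2 units, higher in 2 of 4 samples, and both were among the 10 miRNAs with the smallest spread. miR-206, typical of regenerating fibres, read 1.53 ± 0.41 log2 units below miR-133b, its neighbour within 3801 bases on chromosome 1, in 4 of 4 samples.

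Assays for other cells of the skin were few, and their detection was mixed. Over the whole plate, 28.4% of the miRNA assays were detected in all samples and 63.7% in none. The endothelial miRNA miR-126 had a Ct of 29.89, 29.78, 30.35 and 29.96. Of the fibroblast list, miR-214 was detected at a level of -16.38 ± 0.32, while miR-199a and miR-199b were beyond the limit in all samples. The star form miR-199a* had a Ct of 34.7, 35.5, 35.2 and 34.8 and passed the limit in 2. Of the smooth muscle pair, miR-145 had 34.7, 34.04, 34.1 and 34.1 and miR-143 lay between 35.9 and 37.3. Neither erythroid miRNA was detected in all samples, since miR-451 ran from 35.5 to 36.7 and miR-486 passed the limit in samples 1 and 2 only. In whole tissue, a smaller number of cells of a type and less RNA in each of them cannot be told apart.

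miRNAs of other organs and of the embryo were mostly silent at this limit. Of all miRNA assays, 63.7% were detected in no sample, and 116 of the 306 were at 40 in every sample. The liver miRNA miR-122a gave no product in any sample. None of the 12 embryonic stem cell miRNAs was detected, and 8 of them were at 40 throughout. Of 5 pancreas and endocrine miRNAs, miR-7 passed the limit in sample 3 alone (34.9), and miR-375 did not pass it in any. The 3 gut and kidney miRNAs were not detected. Of 36 assays for the imprinted Dlk1-Dio3 cluster, active mainly in embryo, placenta and brain, 4 were detected in all samples (11.1%, against 28.4% of all miRNA assays), namely miR-127, miR-434-3p, miR-379 and miR-376a. The neural list gave a single exception, miR-124a (1 of 10 detected in all samples, against 28.4% of all miRNA assays). This main miRNA of neurons had a Ct of 29.7, 30.1, 30.2 and 30.6. The other 9 neural assays, among them miR-9, miR-128a, miR-132 and miR-137, were at 40 in all 4 samples. miR-182, placed on the melanocyte and eye list, was detected in all samples at a mean Ct of 33.3, while miR-183 and miR-96, encoded within 3771 bases of it on chromosome 6, had means of 36.7 and 39.1. The hypoxia miRNA miR-210 had a Ct of 37.5, 37.8, 40 and 37.4.

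**Figure D3:**
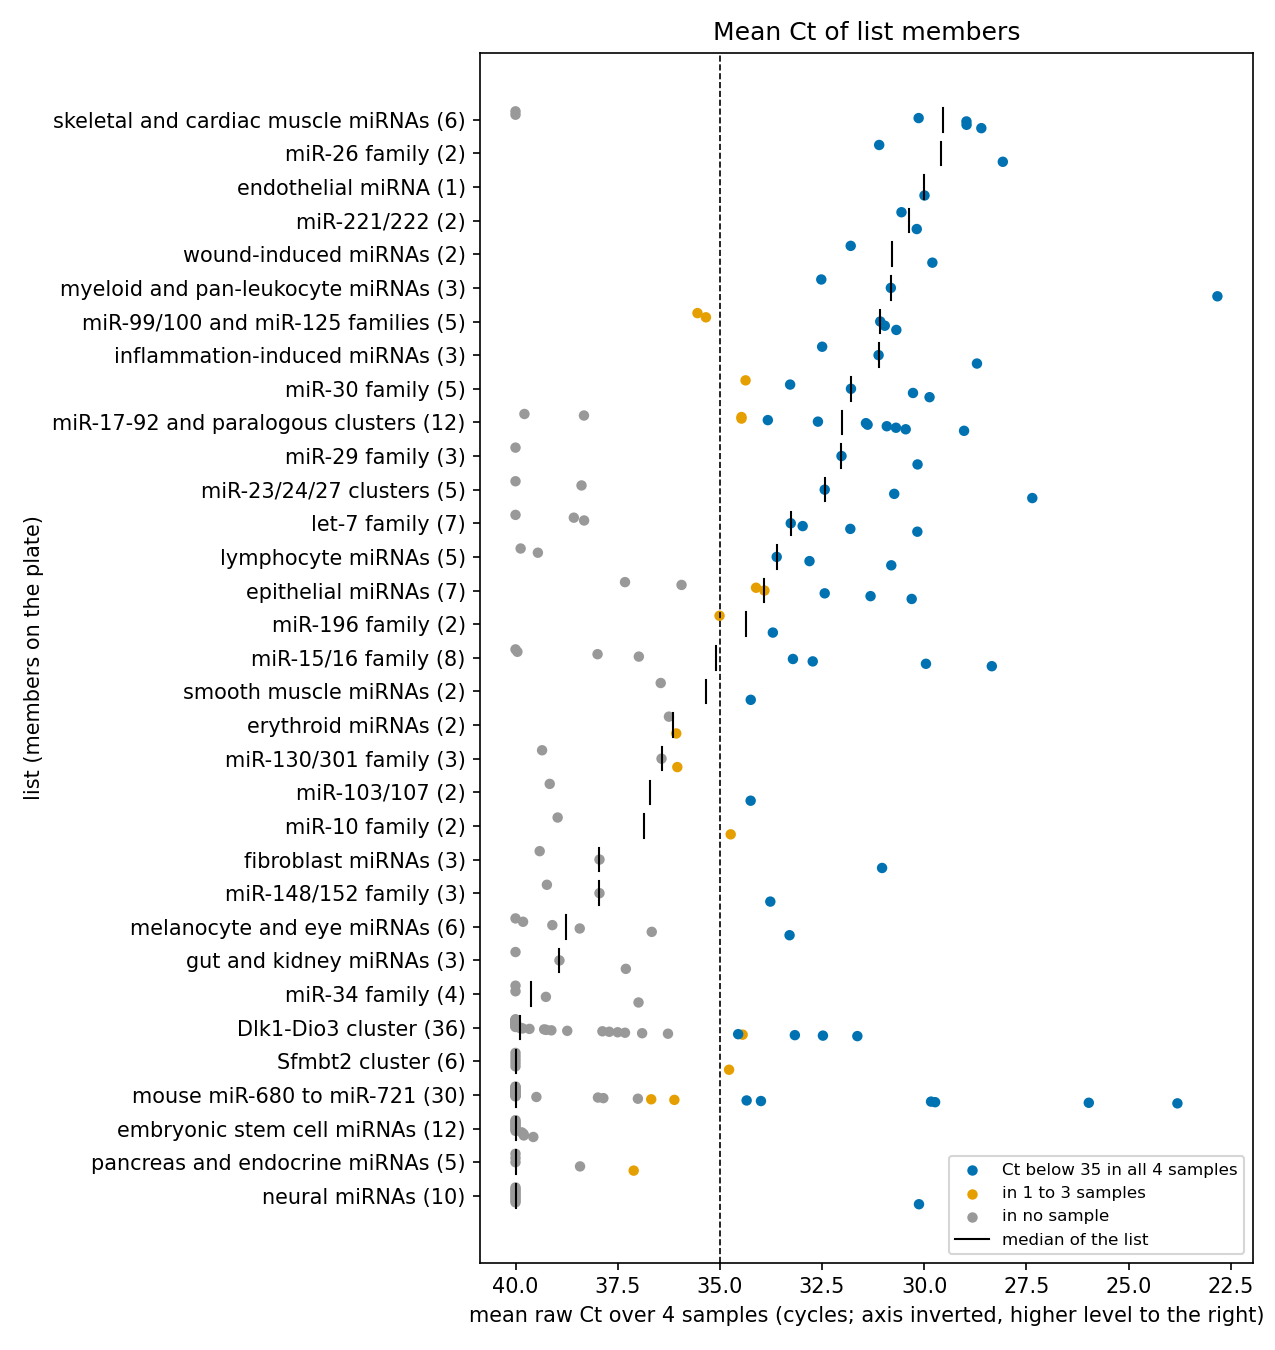
Mean raw Ct over 4 samples (horizontal axis, inverted so that higher levels lie to the right) of the members of each list, with the number on the plate in brackets; colours give the number of samples below the limit of 35 (dashed line), and the black tick is the list median. Muscle, vessel, wound and myeloid lists lie to the right, and the embryonic, neural, pancreas and Sfmbt2 lists lie at or near 40 apart from single members.

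The assays for mouse miR-680 to miR-721, a block of names from early cloning studies, held a few high readings beside many assays that were not detected. Of 30, 6 were detected in all samples (20%, against 28.4% of all miRNA assays) and 2 in some. Another 22 were detected in none, as were 63.7% of all miRNA assays. In this block 18 gave no product in any sample, as did 116 of all 306 miRNA assays. Those detected were miR-709 and miR-720, described above, then miR-699 (-15.09 ± 0.24) and miR-690 (-15.18 ± 0.66), and far lower miR-692 (-19.35 ± 0.29) and miR-706 (-19.70 ± 0.56). miR-690 had a Ct of 29.84, 30.34, 30.02 and 29.13, and it is printed here as the highest of these with an entry in RefSeq, at chr16:28599940-28599961 on the minus strand.

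miR-690: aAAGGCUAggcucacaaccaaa

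Families that share a seed were often detected in part. Of the 87 detected miRNAs, 68 were matched to a RefSeq mature sequence (78.2%), and these held 48 different seeds, of which 13 were shared by 2 or more detected members. The largest detected group, with seed AAAGUGC, was that of the miR-17-92 and paralogous clusters, which promote proliferation. miR-93, miR-20a, miR-106a, miR-106b and miR-17-5p were detected and miR-20b was not. Of all 12 members of these clusters on the plate, 8 were detected in all samples (66.7%, against 28.4% of all miRNA assays). The let-7 family, which restrains growth in differentiated cells, had 4 of 7 members detected (57.1%, against 28.4% of all miRNA assays), and is shown because its members differ by few bases while their Ct values ran from 30.2 to 40.

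let-7b: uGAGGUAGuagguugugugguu
let-7c: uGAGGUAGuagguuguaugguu
let-7i: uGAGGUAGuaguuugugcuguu
let-7g: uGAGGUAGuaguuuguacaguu
let-7d: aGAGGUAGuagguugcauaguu
let-7e: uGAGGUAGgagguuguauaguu

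In samples 1 to 4 the Ct of let-7b was 30.1, 30.4, 30.3 and 29.9 and that of let-7c, which differs from it at 1 of 22 bases, was 31.7, 32.1, 32.1 and 31.4. let-7b read 1.64 ± 0.12 log2 units above let-7c in 4 of 4 samples, a difference with little spread. let-7i and let-7g followed at mean Ct values of 32.97 and 33.27. let-7d had 36.2, 37.1, 40 and 40, and let-7e, which differs from let-7c at 2 bases, gave no product in any sample. How far each assay reads its close relatives was not tested.

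The miR-15/16 family, which holds back cell division, also spread widely. Of 8 assays on the list, 4 were detected in all samples (50%, against 28.4% of all miRNA assays). The other 4 were detected in none, as were 63.7% of all miRNA assays, namely miR-15a, miR-424, miR-322 and miR-503. The 5 shown share a seed.

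miR-16: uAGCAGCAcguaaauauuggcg
miR-195: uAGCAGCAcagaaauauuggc
miR-15b: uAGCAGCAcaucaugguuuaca
miR-497: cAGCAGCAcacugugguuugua
miR-15a: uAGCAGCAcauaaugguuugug

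miR-16 had a mean Ct of 28.3 and a level of -13.70 ± 0.28. miR-195 differs from it at 2 of 21 compared bases and had a mean Ct of 29.96, with a wide spread of 0.69 log2 units between samples. miR-15b and miR-497 lay at 32.7 and 33.2, and miR-15a was beyond the limit at 37.99. miR-16 read 4.38 ± 0.50 log2 units (20.8-fold) above miR-15b, with which it is encoded within 165 bases on chromosome 3, and miR-195 read 3.25 ± 0.61 (9.54-fold) above miR-497, encoded within 353 bases on chromosome 11. Both held in 4 of 4 samples. miR-16 is also made from a further hairpin, beside miR-15a on chromosome 14.

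Pairs that differ by a single base elsewhere on the plate also gave separate readings. miR-103 and miR-107, which share the seed GCAGCAU and act on insulin signalling, are shown for this reason, with miR-19b and miR-19a and with miR-99a and miR-100.

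miR-103: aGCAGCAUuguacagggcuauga
miR-107: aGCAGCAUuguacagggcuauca
miR-19b: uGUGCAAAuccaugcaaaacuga
miR-19a: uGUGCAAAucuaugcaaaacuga
miR-99a: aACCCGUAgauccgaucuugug
miR-100: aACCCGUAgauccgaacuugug

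miR-103 had a Ct of 34.2, 34.3, 34.2 and 34.3, among the tightest of the plate, and miR-107 had 38.5, 38.1, 40 and 40. miR-19b, an oncogenic member of its cluster in mouse lymphoma models, read 1.67 ± 0.70 log2 units above miR-19a in 4 of 4 samples. miR-99a had a mean Ct of 30.97 and miR-100 of 35.5, with sample 4 alone below the limit. In each pair the higher form was the same in all 4 samples.

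Neighbours cut from a common precursor differed widely in Ct in some clusters. Among 18 textbook clusters with at least 2 members on the plate, 5 had all members detected in every sample. Another 11 had a member detected in all samples and another in none. The clusters are not all separate, since miR-24, miR-16 and miR-29b each come from hairpins on different chromosomes and count in more than a single cluster. Their readings cannot be assigned to a cluster. Of all miRNA assays, 28.4% were detected in all samples and 63.7% in none. How often groups of unrelated assays are mixed in this way was not tested. The miR-23/24/27 clusters showed the widest gaps of the 18. miR-24 had a mean Ct of 27.4, miR-27a of 30.7 and miR-23a gave no product in any sample. The 3 lie within 334 bases on chromosome 8, but miR-24 is also made from chromosome 13. In the paralogous cluster, miR-27b had a Ct of 31.7, 32.8, 33.2 and 31.999, and miR-23b had 40, 38.1, 40 and 35.4. A smaller gap stood between miR-214 (31.03) and miR-199a (39.4), or its other arm miR-199a* (35.02), which lie within 5616 bases on chromosome 1. miR-29a (30.2) and miR-29c (32.02), which restrain collagen synthesis, were both detected, while miR-29b, a neighbour of each, was at 40 throughout. In the cluster of miR-99b, let-7e and miR-125a, which spans 647 bases on chromosome 17, the means were 35.3, 40 and 31.1.

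In other clusters no member was beyond the limit in every sample. The mean Ct of miR-221 was 30.6 and that of miR-222 was 30.2, a difference in level of -0.37 ± 0.43 that is smaller than its spread. miR-99a, let-7c and miR-125b were read at 30.97, 31.8 and 30.7. The 6 members of the miR-17-92 cluster on chromosome 14, within 813 bases, ran from 29.03 for miR-19b to 34.5 for miR-18a. miR-18a missed the limit in sample 2 (35.5) and the other 5 were detected in every sample. The miR-30 family had 4 of 5 members detected in all samples (80%, against 28.4% of all miRNA assays) and miR-30e-5p in 3. The miR-26 family had both members, with miR-26a 3.02 ± 0.16 log2 units above miR-26b.

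Arms that carry the same miRNA number were paired for 24 hairpins. Arms under another old name, such as miR-213 of miR-181a, were not paired. Both arms were detected in all samples for 4 of the 24, and neither arm was detected in any sample for 13. Of all single miRNA assays, 28.4% were detected in all samples and 63.7% in none. For miR-30a the arm usually called the passenger read higher, with miR-30a-3p 1.07 ± 0.33 log2 units above miR-30a-5p in 4 of 4 samples. miR-30e* likewise read 0.58 ± 0.53 above miR-30e-5p in 4 of 4. For miR-140 the unmarked arm read 0.97 ± 0.26 above the star form, and miR-142-3p read 1.70 ± 0.69 above miR-142-5p, each in 4 of 4 samples. miR-126 and miR-126* differed by 0.76 ± 0.85, which is within the spread. Among these 24 pairs the most unequal were miR-133a and miR-434. The star form of miR-133a gave no product. The 3p arm of miR-434 had a mean Ct of 32.5, and its 5p arm was at 40 in every sample.

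Spread between the samples was small for most detected miRNAs. The median SD of the 87 was 0.41 log2 units, a factor of 1.33, and 55 of them (63.2%) had an SD below 0.5. It was 0.29 over the 19 with a mean Ct below 30, 0.41 over the 33 between 30 and 32, 0.53 over the 13 between 32 and 33 and 0.59 over the 18 between 33 and 34. The 4 between 34 and 35 had 0.40. The 24 miRNAs detected in 1 to 3 samples had a median SD of 0.89. The limit of 35 defines these sets. It bounds the spread of miRNAs near it that were detected in all samples, and requires spread in those on both sides. The difference between these sets is therefore fixed in part by the limit. Across the 87 miRNAs, which share samples and reference, the Spearman correlation of mean Ct and SD was 0.34, given as a description.

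Relative to 5S rRNA, the 10 steadiest miRNAs were miR-218, miR-422b, miR-103, miR-150, miR-709, miR-1, miR-133a, miR-191, miR-30a-3p and miR-26a. On raw Ct, miR-422b, miR-103, miR-191, miR-30a-3p and miR-26a stayed among the 10 steadiest. The others did not, with miR-218 at an SD of 0.24 cycles against 0.11 for miR-29a. miR-218, cut from the Slit2 and Slit3 genes, had levels of -17.62, -17.46, -17.38 and -17.60 in samples 1 to 4, an SD of 0.12. Relative to 5S rRNA, steady miRNAs were found from the second highest miRNA reading, miR-709, to miR-103 near the limit. The 10 most variable were miR-379, miR-29c, miR-106a, miR-19a, miR-142-3p, miR-30e*, miR-196a, miR-142-5p, miR-27b and miR-320. miR-379 of the Dlk1-Dio3 cluster had -17.15, -19.08, -19.71 and -18.12, with sample 1 highest and sample 3 lowest. miR-29c had -18.29, -18.19, -16.59 and -16.44, so that samples 3 and 4 lay above samples 1 and 2 with a gap between them.

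**Figure D4:**
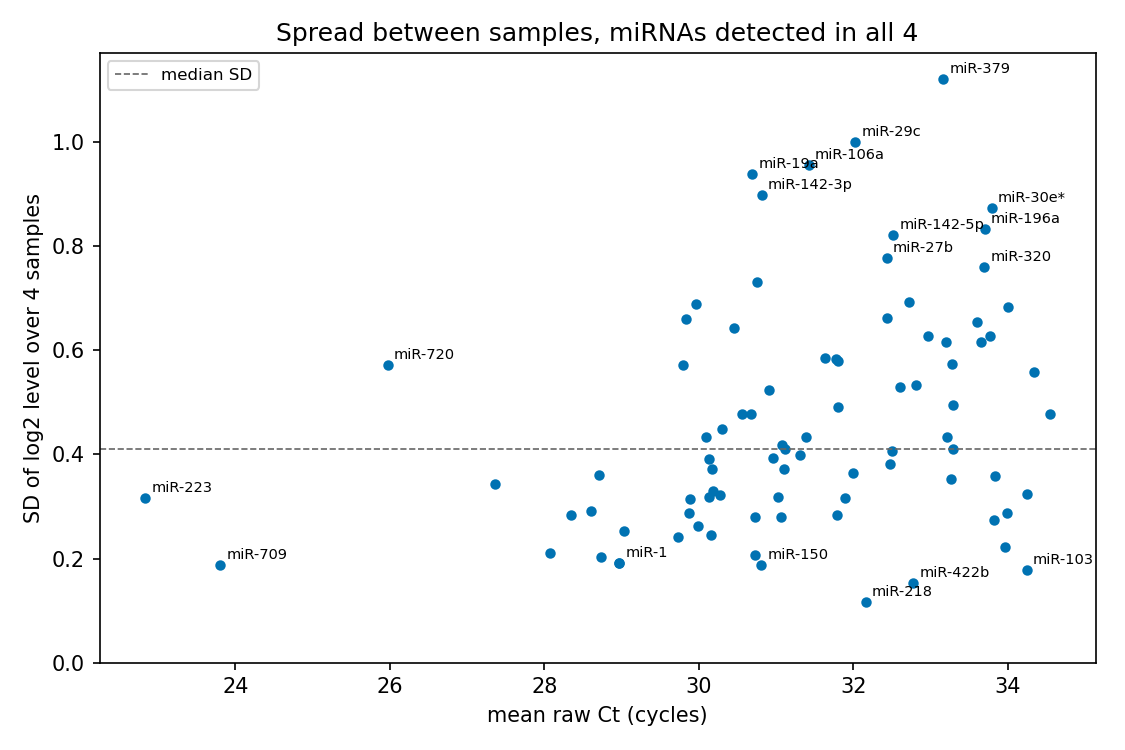
SD of the log2 level over the 4 samples (vertical axis) against the mean raw Ct (horizontal axis) for the 87 miRNAs detected in all 4; the dashed line is the median SD of 0.41, and the least and most variable miRNAs are named. The SD lies at 0.69 or lower for all miRNAs with a mean Ct below 30 and reaches 1.12 beyond it.

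The 4 samples were alike in order but not in overall level. Pearson correlations between samples over the 87 miRNAs ran from 0.958 to 0.976 and Spearman correlations from 0.931 to 0.965, as a description across miRNAs, which are not independent replicates. Relative to 5S rRNA, sample 4 held the highest value for 62 of the 87 miRNAs and sample 2 the lowest for 43. Median deviations from the mean of 4 were 0.00, -0.30, -0.16 and 0.41 log2 units in samples 1 to 4. The Ct of 5S rRNA moved the same way, at 14.7, 14.5, 14.6 and 14.8, since a later reference raises every level in its sample. On raw Ct, sample 4 was highest for 42 miRNAs with a median deviation of 0.23, and relative to the mean of the 87 miRNAs it was highest for 15. The part of 5S rRNA in the higher levels of sample 4 was not tested beyond these scales.

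**Figure D5:**
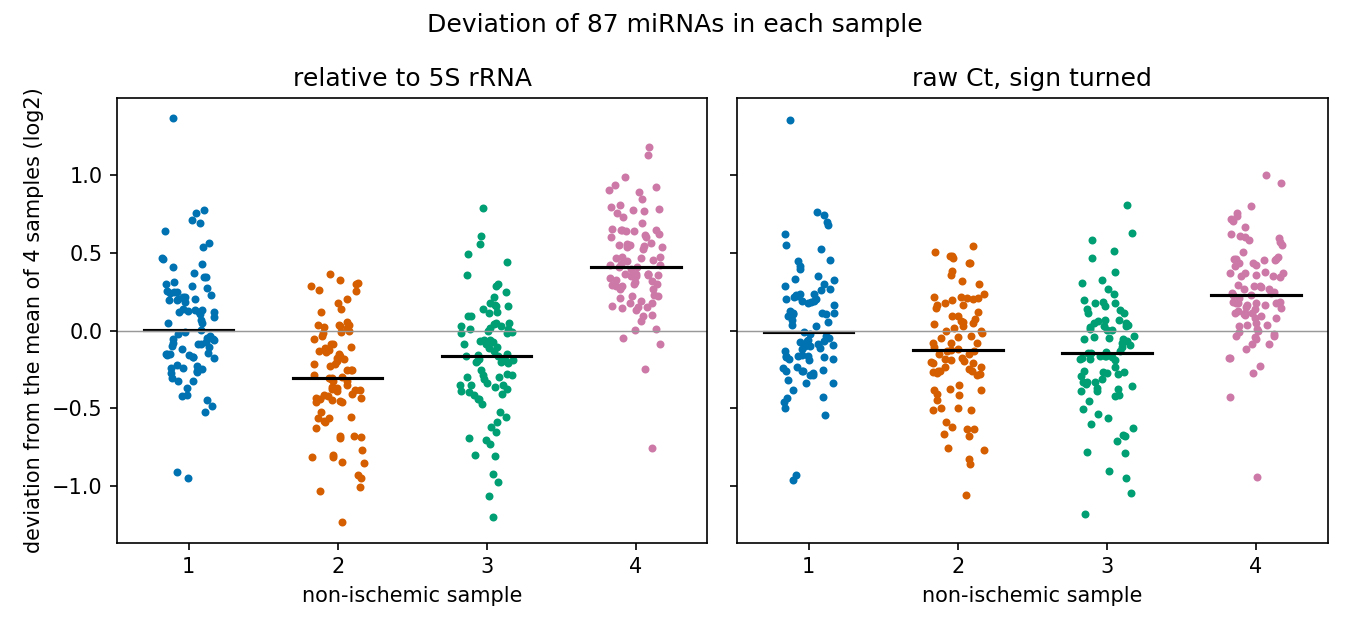
Deviation of each of the 87 miRNAs from its mean over the 4 samples (log2, vertical axis) in samples 1 to 4, relative to 5S rRNA (left) and on raw Ct with the sign turned so that higher means more (right); black lines are medians. The median of sample 4 is the highest of the 4, at 0.41 on the left and 0.23 on the right.

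Relative to 5S rRNA most lists were highest in sample 4, and they differed more in which sample was lowest. The 3 detected myeloid miRNAs deviated by 0.17, -0.15, -0.73 and 0.72 log2 units on average in samples 1 to 4. Among them miR-223 was level over samples 1 to 3, at -8.33, -8.34 and -8.34, and higher in sample 4, at -7.70. The low mean in sample 3 lay in both arms of the miR-142 hairpin, at -17.14 and -18.93 there. The 3 detected epithelial miRNAs deviated by 0.07, -0.12, -0.47 and 0.51. Both lists were lowest in sample 3 and highest in sample 4. Over all 87 miRNAs the median deviations were -0.16 in sample 3 and 0.41 in sample 4, and these shared offsets were not taken out of the list values. The 4 detected muscle miRNAs varied less, with -0.20, 0.02, -0.08 and 0.26. The 2 detected members of the miR-29 family deviated by -0.47, -0.56, 0.42 and 0.61 on average in samples 1 to 4. The split between samples 1 and 2 and samples 3 and 4 lay mainly in miR-29c. Its levels were -18.29, -18.19, -16.59 and -16.44 in samples 1 to 4. Those of miR-29a varied less, at -15.54, -15.83, -15.47 and -15.23. The 4 detected Dlk1-Dio3 miRNAs had another pattern, with mean deviations of 0.62, -0.55, -0.48 and 0.41.

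Control RNAs set the frame for these values. The Ct of 18S rRNA was 12.6, 11.9, 12.04 and 11.9. snoRNA251 and snoRNA142 read with SYBR had means of 23.2 ± 0.26 and 24.6 ± 0.25 (SD, n = 4), while assays of the same names without that mark were at 40 in all samples. In sample 2, snoRNA202 had a Ct of 31.96, against 28.3, 28.2 and 27.8 in samples 1, 3 and 4, and snoRNA135 had 39.5, against 32.5, 33.8 and 32.5, while snoRNA234 had 32.1 there and 31.03 to 31.58 in the others. The fly let-7 assay lay between 39.2 and 40.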

How the data were processed

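The authors deposited raw threshold cycles, a PCR score without normalization, for 316 assays run on 384-well plates from 500 ng of RNA, per the labels. They also deposited log2 values, per the file headers a delta Ct, and a linear ratio to 5S rRNA. The sources used here name no software for the threshold. The deposited log2 values matched the difference between 5S rRNA Ct and assay Ct within 0.0001 cycles for 315 of 316 assays; 18S had the opposite sign, and raw Ct was used for it. Raw columns are numbered, and the second header line of the deposited delta Ct tables names Samples 1 to 4 as the non-ischemic samples. The raw table also holds 7 repeated columns of 5S rRNA, which were not used.

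miRNAs are named by the assay without species prefix and leading zeros. Means, SDs and ranks were computed in Python 3.11.15 with pandas 2.3.3 on log2 levels, with Ct 40 kept as deposited. With 1 group there is no contrast, so no p-value is given. PCR gives no count of molecules here, so precision is the spread between samples. The members and 35 lists, from textbook knowledge, were chosen with earlier results of these data known. The rule for named miRNAs took the 20 highest, the 10 least and 10 most variable, up to 4 members of each list by level, the 5 on each side of Ct 35, those detected in 1 to 3 samples with a range over 4 cycles, control RNAs and those with a far sample. Other members of lists, families, clusters and arm pairs complete their group and were picked with their values in view. Arms were assigned to old names by hand, and 166 of 306 assays were matched to RefSeq mature sequences (GRCm38.p6). Sequences were compared base by base from the 5′ end. The calculation of SDs and of far samples was tested on simulated data. Alternatives were other Ct limits, other normalizations, other summaries, and each sample left out in turn.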

Additional observations from a re-analysis of the deposited data

Results flagged for a closer look

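A sample stood far from the other three, by the ratio of its gap to the range over 4 samples, set against Dixon's critical value, for 3 of the 87 miRNAs detected in all samples, 3.45%, where chance flags about 1 in 20. miR-223 lay 0.63 log2 units above the mean of the others in sample 4, with a ratio of 0.982. miR-26a was 0.42 higher in sample 4, with a ratio of 0.838, and the mean of the miR-26 family gave 0.830. miR-30d was 1.14 log2 units lower in sample 2 (difference -1.14), with a ratio of 0.880. On raw Ct the ratio was 0.6001 for miR-223 and 0.374 for miR-26a, both under the critical value, and 0.842 for miR-30d. Relative to the mean of the 87 miRNAs it was 0.624, 0.277 and 0.456, so none of the 3 stood apart there. The count itself depended on the scale. On raw Ct a sample stood far from the others for 8 of the 87 miRNAs (9.20%), with the highest ratio for miR-146a (0.986), and relative to the miRNA mean for 4 (4.60%), with the highest for miR-203 (0.899).

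Among the control RNAs, snoRNA202 in sample 2 differed by -4.08 log2 units from the others (ratio 0.857), and snoRNA251 read with SYBR in sample 1 differed by -0.44 (ratio 0.874).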

How the results depend on the processing

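The count of 87 miRNAs detected in all samples was 46 with a limit at Ct 32, and stayed within 1.5 times at Ct 33, at Ct 38 and with 3 of 4 samples required. The share held by the 10 highest miRNAs was 85.8% without miR-680 to miR-721 and 84.8% without miR-709 and miR-720, both chosen after seeing the data. With 1 sample left out in turn, the detected count ran from 87 to 92, the median SD from 0.33 to 0.45, and 19 or 20 of the 20 highest miRNAs were shared. The share of the 10 highest then ran from 87.5% to 88.3%, the hairpins with both arms detected from 4 to 5, and the count detected in none rose by under 5. The median SD was 0.35 on raw Ct, 0.32 relative to the mean of the 87 miRNAs and 0.52 relative to 4 snoRNAs (0.34 without snoRNA202, added after seeing the data). The snoRNA reference moved all named mean levels by 12.43 log2 units and left their order as it was, since it shifts a sample as a whole. No paired analysis was possible because a single group was described and no result came from a test between groups. The larger SD of miRNAs detected in 1 to 3 samples follows in part from the limit, since their values must lie on both sides of it. A Ct of 40 gives no level, and bounds it only where the assay works. The assays of snoRNA251 and snoRNA142 without the SYBR mark were at 40 in all samples. Those read with SYBR had means of 23.2 and 24.6. Whether miRNA assays at 40, and the families called silent, missed an RNA that was present was not tested.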
